A study of Mus musculus with 12 samples.

Results

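RNA for a group of excitability and coupling genes was measured in whole mouse hearts: the sodium channel genes Scn4b and Scn4a, the pacemaker channel genes Hcn2 and Hcn4, and the connexin genes Gja1 and Gja5. The members were the non-control probes whose gene name, or an older synonym of it, is one of these 6 names. This gave 9 probes on 18 spots of each array, for 5 of the 6 genes, out of 41174 transcript probes and 27669 gene names in all. No probe matched Scn4b, and it is not analysed here. The arrays were Agilent whole mouse genome one-colour arrays, hybridised with Cy3-labelled copies of total RNA from 12 male C57BL/6 mice, 1 heart to an array. The hearts fall into 4 groups of 3 mice, cardioGRMRdKO and dflox at 1 month of age and cardioGRMRdKO and dflox at 2 months. The cardioGRMRdKO mice carry Cre, a recombinase, under αMHC, a promoter of heart muscle cells, and it acts on floxed alleles of Nr3c1, which encodes the glucocorticoid receptor (GR), and of Nr3c2, which encodes the mineralocorticoid receptor (MR). The dflox mice were littermates with the same floxed alleles and without Cre. All cardioGRMRdKO mice carried Cre and all dflox mice lacked it, so loss of the receptors and presence of Cre cannot be told apart. This promoter drives Cre in muscle cells, and the other cells of the heart were part of each sample.

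The upstroke of the cardiac action potential is carried by voltage-gated sodium channels, made of a pore-forming α subunit and small β subunits that adjust its gating and its placement in the membrane. Scn4a encodes the main α subunit of skeletal muscle, and Scn4b encodes a β subunit. Hcn genes encode hyperpolarization-activated channels that carry the pacemaker current, with Hcn4 the main form of the sinoatrial node. Connexins form the gap junctions through which current passes between cells. Gja1 encodes Cx43, the main form of working myocardium, and Gja5 encodes Cx40, found in atrial muscle, the fast conduction system and arterial endothelium. Because whole hearts were used, fewer cells of a type and less RNA per cell cannot be told apart.

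None of the 5 measured genes passed the test between genotypes at either age, over both ages together, or between ages. Hcn2 was lower in all 3 cardioGRMRdKO hearts than in all 3 dflox hearts at 2 months, with a log2 difference of -0.53 (SE 0.164). Gja1 was higher in all 3 cardioGRMRdKO hearts than in all 3 dflox hearts at 1 month, with a log2 difference of 0.45 (SE 0.202). Neither difference passed the adjustment for 18258 genes. Hearts of the 2 genotypes did not overlap, in either direction, for 17.2% of all genes at 2 months and for 18.1% at 1 month. Of 31 tested genes of the conduction system and its regulators, 1 passed at 2 months, Kcne1, beside 2.23% of all genes. It was lower in cardioGRMRdKO hearts, and the call was kept in 22 of 27 other settings. Settings that lost it included the removal of single 2-month hearts.

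A level is the log2 of the scanner's processed signal minus the 75th percentile of the same array, so 0 marks that percentile and a step of 1 is a doubling. Levels of different probes are not on a shared scale and are not set against each other. A gene was called changed at a Benjamini-Hochberg adjusted p under 0.05 from limma over all 18258 genes tested. By this rule 0.948% of genes were called between genotypes at 1 month, 2.23% at 2 months and 4.37% over both ages. Between 2 months and 1 month, 0.351% were called in cardioGRMRdKO hearts and 0.635% in dflox hearts. Tested between the 2 ages, the genotype effect gave calls for 0% of genes in limma, with 645 genes at an unadjusted p under 0.05. The members called numbered 0 of 5 in each of the 6 comparisons. At an unadjusted p under 0.05, Gja1 passed at 1 month, Hcn2 passed at 2 months and over both ages, and none passed in the other 3 comparisons. Of all 18258 genes, 1697 passed that mark at 1 month, 2763 at 2 months and 3151 over both ages.

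The hearts expressed cardiomyocyte markers at mean levels of 6.55 to 7.17 on all 12 arrays, the lowest in 2-month cardioGRMRdKO replicate 3. Of these 10 markers, 9 were below 0 between genotypes at 1 month (median -0.09) and 7 at 2 months (median -0.14). The medians of all genes were 0.00 and -0.08. Over both ages 8 of the markers were below 0 and 1 was called lower. Nr3c1 was 1.09 lower on the log2 scale in cardioGRMRdKO hearts at 2 months (SE 0.143, limma adjusted p = 0.007), with values on 10 of the 12 arrays after outlier spots were removed. At 1 month its difference was -0.73 (limma adjusted p = 0.138), and Nr3c2 did not pass at 1 month (0.07) or at 2 months (-0.44). Between 63.7 and 71.9% of transcript spots per array were well above background, and 0 were saturated. The 12 arrays were on 3 slides of 4, each scanned as a unit. At 1 month all cardioGRMRdKO arrays were at inner places of a slide and all dflox arrays at outer places, so within that age an effect of place and one of genotype cannot be told apart. Mean levels of airway epithelium markers also separated the 1-month groups, from -4.14 to -2.37 in cardioGRMRdKO hearts and from 0.86 to 2.07 in dflox hearts. At 2 months they were 1.87, -4.20 and 1.94 in cardioGRMRdKO hearts and -2.10, -4.11 and 2.31 in dflox hearts. Of 10 airway markers tested, 0 passed limma's adjusted test at either age, while 10 at 1 month and 0 at 2 months had an unadjusted p under 0.05.

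Among the sodium channel members, Scn4a was measured by 1 probe, at chr11:106428448-106428507 of mouse build mm7, on the minus strand. Its first 30 of 60 bases are shown here to identify what was measured.
Scn4a A_51_P345985: atgaaggggttggtcaccttcctgtcacta
At 1 month the Scn4a level was -1.75, -2.20 and -2.13 in cardioGRMRdKO hearts, against -1.99, -1.89 and -1.79 in dflox hearts. At 2 months it was -1.98, -1.49 and -1.98 in cardioGRMRdKO hearts, against -2.03, -1.14 and -1.02 in dflox hearts. The groups overlapped at both ages. dflox replicates 2 and 3 stood highest of the 2-month hearts, while dflox replicate 1 was the lowest. The difference was -0.14 at 1 month (95% interval -0.70 to 0.43, limma adjusted p = 1.00) and -0.42 at 2 months (-0.98 to 0.15, limma adjusted p = 0.454).

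The 4 arrays of slide 3 gave the 4 highest Scn4a levels of the 12, across 3 of the 4 groups, and the same held for the brighter Hcn4 probe. Slide 3 held both of the high 2-month dflox hearts, whose 75th percentile intensities were 583 and 479, against 572 to 1079 on the other 10 arrays. Within slides, the Scn4a difference at 2 months was 0.06 on slide 1, with 1 heart of each genotype, and -0.41 on slide 3, with 1 cardioGRMRdKO and 2 dflox hearts. With slide as a block it was -0.24. Without slide 3, a setting added after the levels were seen that left 1 dflox heart at 2 months, it was 0.05. Skeletal muscle markers, of which 19 of 21 were tested and Cacng1 and Myog were not, had mean levels of -1.17, -1.08 and -1.33 in 2-month cardioGRMRdKO hearts and -1.56, -1.08 and -1.02 in 2-month dflox hearts. The 2 dflox hearts with high Scn4a had the higher marker means of their group, while 14 of the 19 markers were below 0 and 5 above 0 between genotypes at 2 months, with a median difference of -0.30 beside -0.08 for all genes. Of the 19, 2 were called higher in cardioGRMRdKO hearts at that age and 0 lower, and over both ages 3 were called higher and 3 lower. Among all genes, 2.23% were called at 2 months and 4.37% over both ages. The part of these markers in the Scn4a values was not tested.

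**Figure D1:**
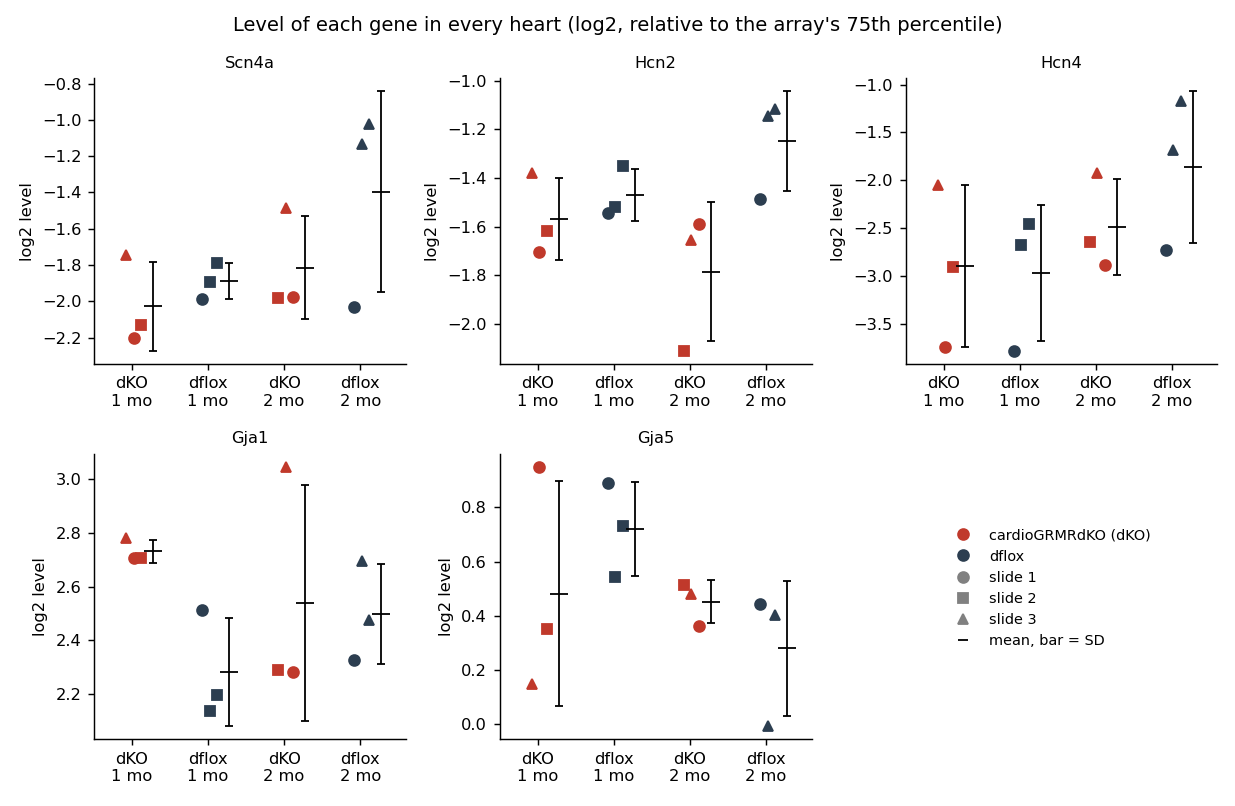
Log2 level of Scn4a, Hcn2, Hcn4, Gja1 and Gja5 (vertical axes, relative to the array's 75th percentile, each on its own scale) in every heart of the 4 groups, by the brightest probe of each gene. Marker shapes give the slide and bars give mean and SD of 3 hearts; the groups separate for Gja1 at 1 month and for Hcn2 at 2 months, and triangles (slide 3) are the 4 highest points for Scn4a and Hcn4.

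Of the other sodium channel subunits, Scn10a, an α subunit best known from sensory neurons, had differences of 0.06 at 1 month and 0.13 at 2 months. For the β subunit gene Scn2b the 1-month difference was -0.07 and the 2-month difference 0.27. Scn3b, also a β subunit gene, differed by -0.33 and -0.15. These 3 genes did not pass in limma at either age or over both, with adjusted p of at least 0.161.

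Among the pacemaker channels, Hcn2, a form present in working muscle as well as pacemaker cells, was read by 1 probe at chr10:79515782-79515841 on the plus strand. Its first 30 bases are given to show its base composition, since G and C make up 75% of the probe against a median of 40% over all transcript probes.
Hcn2 A_52_P130814: cctgggacagggacagggcggccctggccg
The Hcn2 level was -1.38, -1.71 and -1.62 in 1-month cardioGRMRdKO hearts, against -1.54, -1.52 and -1.35 in 1-month dflox hearts, and these groups overlapped. The level at 2 months was -2.11, -1.65 and -1.59 in cardioGRMRdKO hearts, against -1.49, -1.15 and -1.12 in dflox hearts. At this age the highest cardioGRMRdKO heart lay below the lowest dflox heart. Such separation, in either direction, was seen for 17.2% of all genes with values in these 6 hearts. The 2 higher dflox hearts were on slide 3, which gave 3 of the 4 highest Hcn2 levels. Intensities before scaling overlapped at 2 months, at 153, 224 and 358 in cardioGRMRdKO hearts against 289, 263 and 221 in dflox hearts.

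The Hcn2 difference was -0.10 at 1 month (95% interval -0.46 to 0.27, limma adjusted p = 1.00). At 2 months it was -0.53 (95% interval -0.90 to -0.17, unadjusted p = 0.008, limma adjusted p = 0.159), a 1.45-fold lower level. In order of unadjusted p it ranked 950 of 18258 genes at 2 months. Over both ages it was -0.32 (SE 0.116, limma adjusted p = 0.185), and the difference between ages was -0.44 (SE 0.232, limma adjusted p = 0.951). Within slides the 2-month difference was -0.10 on slide 1 and -0.52 on slide 3, and with slide as a block it was -0.43. Without cardioGRMRdKO replicate 1, the lowest heart, it was -0.37, and over all 27 other settings it stayed below 0 with adjusted p between 0.094 and 0.757.

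Hcn4 was read by 2 probes on the plus strand of chromosome 9, 2571 bases apart. They are printed because their values differ in size; the first is whole and the second is cut to its first 30 bases.
Hcn4 A_51_P162805, chr9:58886689-58886748: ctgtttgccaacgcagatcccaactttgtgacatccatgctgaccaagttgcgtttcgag
Hcn4 A_52_P292344, chr9:58889260-58889319: caacatgtcactttgcctcggaagacatcc
By the brighter probe, A_52_P292344, the 1-month level was -2.05, -3.75 and -2.91 in cardioGRMRdKO hearts, against -3.78, -2.68 and -2.46 in dflox hearts. In 2-month hearts the level was -2.65, -1.93 and -2.89 in cardioGRMRdKO hearts, against -2.73, -1.68 and -1.18 in dflox hearts. The hearts of a group lay far apart, with SDs of 0.50 to 0.85, and the groups overlapped at both ages. The differences were 0.07 at 1 month (95% interval -1.10 to 1.24) and -0.63 at 2 months (-1.80 to 0.55), with limma adjusted p = 1.00 and 0.577. The 2-month value lay between -1.06 without dflox replicate 1 and -0.28 without dflox replicate 3 when 1 heart was left out. It was -0.42 with slide as a block and -1.08 with the mean of both probes, and neither passed. Without slide 3, which left 1 dflox heart at 2 months, it was -0.04.

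By the dimmer Hcn4 probe, A_51_P162805, the 1-month level was -5.49, -4.75 and -6.69 in cardioGRMRdKO hearts, against -5.05, -4.99 and -5.51 in dflox hearts. By 2 months it stood at -7.62, -4.96 and -5.75 in cardioGRMRdKO hearts, against -5.20, -3.98 and -4.54 in dflox hearts. Its signal was well above background in 2 of 3 cardioGRMRdKO hearts and in 3 of 3 dflox hearts at each age. It passed the filter, a signal well above background on every array of 1 or more groups, only through the dflox groups. The values not well above background, -6.69 at 1 month and -7.62 at 2 months, were the lowest of their ages. The differences take in these values and were -0.46 at 1 month and -1.54 at 2 months (95% interval -2.98 to -0.09, limma adjusted p = 0.305 over all probes). How far they rest on those 2 values was not tested. Heart by heart, the dimmer minus the brighter probe had a genotype difference of -0.91 at 2 months (exact permutation test of 3 hearts against 3, two-sided p = 0.3, adjusted p = 0.6 over 8 such tests). That test cannot give a p under 0.10, so it does not show whether the probes differ.

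Of the genes related to the pacemaker channels, Hcn3, another channel of the family, was not well above background on 1 of 12 arrays and had differences of -0.26 and 0.78 (limma adjusted p = 0.975 and 0.221). Kcne2, a small subunit that can join pacemaker channels, was not well above background on any of the 12 arrays. Among the regulators, Mrvi1 had -0.40 and -0.25 and, over both ages, -0.33 (limma adjusted p = 0.055). Pex5l, which controls trafficking of these channels, had -0.40 and -0.22 (limma adjusted p = 0.726 and 0.647). Lrmp, Cav3 and Rest had differences between -0.14 and 0.05 at the 2 ages, with limma adjusted p of at least 0.597.

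**Figure D2:**
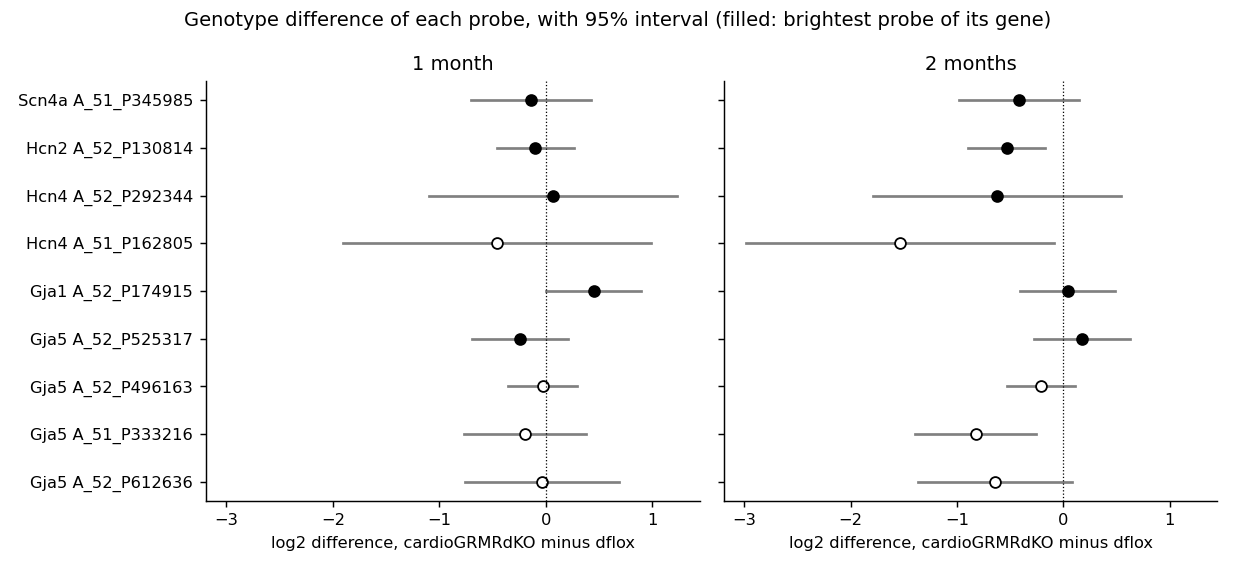
Difference in log2 level, cardioGRMRdKO minus dflox (horizontal axes), for each of the 9 probes at 1 month (left) and 2 months (right), with unadjusted 95% intervals from limma; filled points are the brightest probe of a gene. At 2 months the intervals of Hcn2, the dimmer Hcn4 probe and Gja5 probe A_51_P333216 lie below 0, while the brightest Gja5 probe stands at 0.17. The dimmer Hcn4 probe was well above background in only 2 of 3 cardioGRMRdKO hearts at each age.

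Of the connexins, Gja1 was read by 1 probe at chr10:56207239-56207298 on the plus strand, which is spotted 10 times on each array. Its first 30 bases identify it.
Gja1 A_52_P174915: ctacacattaactcagaacttgtattctga
The spots of 1 array agreed to an SD of 0.04 to 0.21 log2 units, with a median of 0.08 over the 12 arrays. The Gja1 level was 2.78, 2.71 and 2.71 in 1-month cardioGRMRdKO hearts, against 2.51, 2.13 and 2.20 in 1-month dflox hearts. The 2-month level was 2.29, 3.05 and 2.28 in cardioGRMRdKO hearts, against 2.32, 2.70 and 2.47 in dflox hearts. The 1-month groups did not overlap, which at that age was the case for 18.1% of all genes in either direction, and the 2-month groups did.

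The Gja1 difference was 0.45 at 1 month (95% interval 0.00 to 0.90, 1.37-fold higher, unadjusted p = 0.049, limma adjusted p = 0.535). At 2 months it was 0.04 (95% interval -0.41 to 0.49, limma adjusted p = 0.932). The difference between ages was -0.41 (SE 0.286, limma adjusted p = 0.951), so the 1-month and 2-month effects were not shown to differ. The 3 cardioGRMRdKO hearts of 1 month lay within 0.04 of each other in SD, against 0.20 in dflox hearts of that age. Within slides the 1-month difference was 0.20 on slide 1 and 0.54 on slide 2, and with slide as a block it was 0.30. With the airway marker mean as a covariate it was 0.07, and with place on the slide as a term it was 0.39. Airway means of the 1-month groups did not overlap, so 0.07 rests on a slope within groups carried across that gap. Inner or outer place did not vary within either 1-month group, so its term was estimated from the 2-month hearts. Neither value thus frees the 1-month difference of airway content or place. At 2 months the difference was -0.21 without cardioGRMRdKO replicate 2, the highest of the 12 levels. It also turned below 0 without dflox replicate 1 (-0.05) and without slide 3 (-0.04), which left 1 dflox heart at that age.

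Gja5 was read by 4 probes, all assigned to the plus strand of chromosome 3. Their sequences are set out together because they gave different answers at 2 months; the first is whole and the others are cut to their first 30 bases.
Gja5 A_51_P333216, chr3:96923028-96923087: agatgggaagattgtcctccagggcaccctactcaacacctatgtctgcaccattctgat
Gja5 A_52_P525317, chr3:96925409-96925468: ccgacactggcactaagactctctgttctg
Gja5 A_52_P496163, chr3:96948177-96948236: tgtccccagtggccctgtgtgttgacagag
Gja5 A_52_P612636, chr3:98283183-98283242: tgtttctttaagtcaatgctaatacaaaca
The last of them lies 1360155 bases from the first and, at 25% G and C, has the lowest such content of the 9 member probes; its assignment to Gja5 is that of the array's design and was not checked. All 4 were well above background on the 12 arrays. The build's annotation was not used here, so exons and untranslated regions are not assigned.

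The brightest Gja5 probe, A_52_P525317, stood for the gene. Its level was 0.15, 0.95 and 0.35 in 1-month cardioGRMRdKO hearts, against 0.89, 0.54 and 0.73 in 1-month dflox hearts. At the later age it was 0.51, 0.48 and 0.36 in cardioGRMRdKO hearts, against 0.44, -0.01 and 0.40 in dflox hearts. The groups overlapped at both ages. Its differences were -0.24 at 1 month (95% interval -0.69 to 0.21) and 0.17 at 2 months (-0.28 to 0.62), with limma adjusted p = 0.930 and 0.684.

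By Gja5 probe A_51_P333216 the level was -2.34, -2.50 and -2.61 in 1-month cardioGRMRdKO hearts, against -2.10, -2.30 and -2.47 in 1-month dflox hearts. The level at 2 months was -2.46, -2.03 and -2.93 in cardioGRMRdKO hearts, against -2.17, -1.48 and -1.30 in dflox hearts. The 2 high dflox hearts were again those on slide 3. Differences were -0.19 at 1 month and -0.83 at 2 months (95% interval -1.40 to -0.26, unadjusted p = 0.009, limma adjusted p = 0.167 over all probes). Probe A_52_P496163 gave -0.03 and -0.21, and the distant probe A_52_P612636 gave -0.04 and -0.64, with limma adjusted p of at least 0.381 for both at 2 months.

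At 2 months the brightest Gja5 probe was thus above 0, while A_51_P333216, A_52_P496163 and the distant probe were below 0. Probe A_52_P496163 starts 25149 bases from A_51_P333216, against 2381 for the brightest probe. Set against the brightest probe heart by heart, probe A_51_P333216 had a genotype difference of -0.998, and the distant probe one of -0.82 (exact permutation tests, two-sided p = 0.2 each, adjusted p = 0.6 over 8 tests). With 3 hearts a group these tests cannot pass, so whether the probes disagree beyond the spread between hearts was not settled. The mean of the 4 probes, the distant one included, gave -0.38 (limma adjusted p = 0.338). Atrial markers, of which 10 of 10 were tested, had a mean level of 2.71 in 1-month cardioGRMRdKO replicate 1, against 3.29 to 4.14 in the other 11 hearts. Between genotypes 9 of the 10 were below 0 at 1 month (median -0.48) and 6 at 2 months (median -0.06), and over both ages 9 were below 0 (median -0.31) and 1 was called lower. That heart had the lowest 1-month Gja5 level by the brightest probe, 0.15, and without it the 1-month groups still overlapped. Arterial endothelial markers had mean levels of 0.42 to 0.75 in 2-month cardioGRMRdKO hearts and 0.94 to 0.98 in 2-month dflox hearts, with 0 of 7 genes called by limma and 1 at an unadjusted p under 0.05. Of the 7, 6 were below 0 at 2 months (median -0.26, beside -0.08 for all genes) and 5 at 1 month (median -0.08, beside 0.00). Their 1-month means were 0.97 to 1.02 in cardioGRMRdKO hearts and 0.98 to 1.12 in dflox hearts. The part of either marker set in the Gja5 values was not tested.

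**Figure D3:**
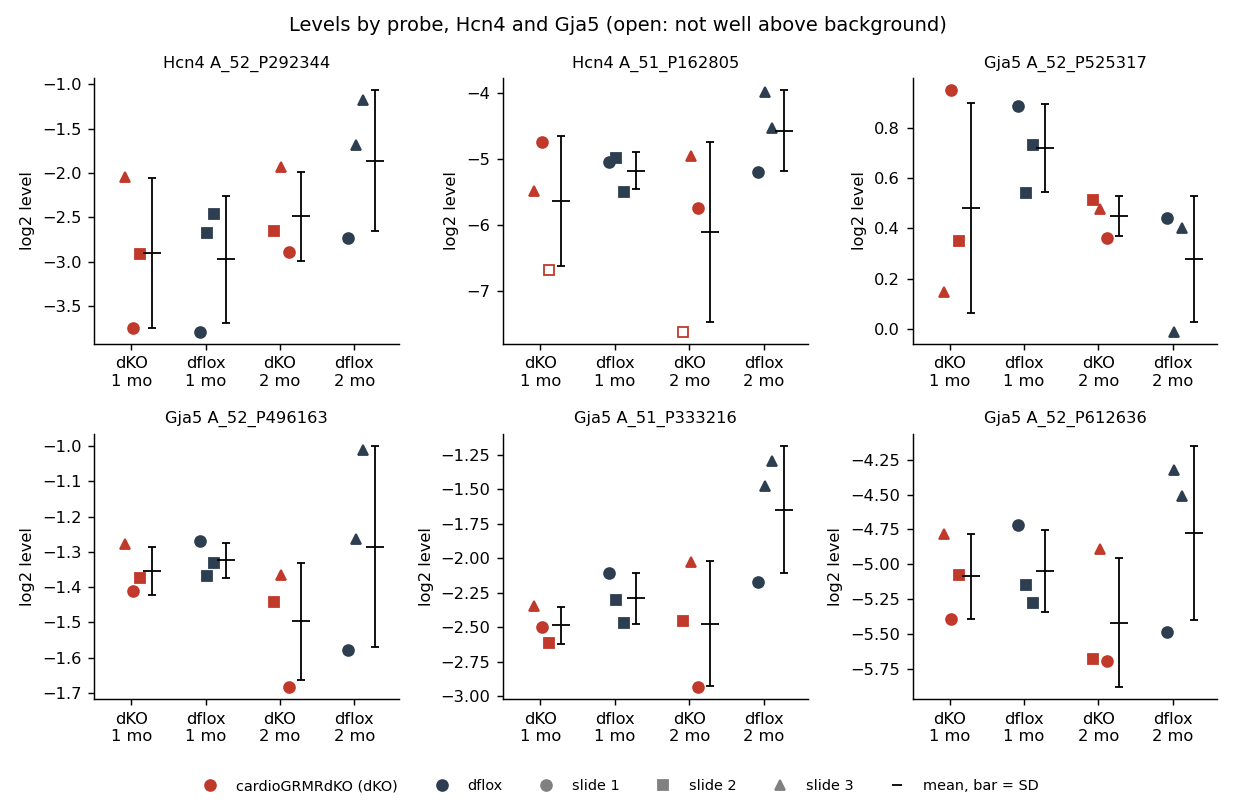
Log2 level (vertical axes, each on its own scale) by each probe of Hcn4 (2 probes) and Gja5 (4 probes) in every heart; marker shapes give the slide, open markers are spots not well above background, and bars give mean and SD of 3 hearts. The dimmer Hcn4 probe has open markers in cardioGRMRdKO hearts at both ages, and the 2-month dflox hearts on slide 3 are the 2 highest of the 2-month hearts for 3 of the Gja5 probes but not for the brightest.

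None of the other connexins passed the test between genotypes. Gjc1 (Cx45, of the nodes and early heart) had differences of -0.03 and 0.00, and its 95% interval at 2 months ran from -0.33 to 0.32. Gja4 (Cx37, of arterial endothelium) had -0.22 and -0.19, with limma adjusted p = 0.643 and 0.429. Gjd3, a connexin found in the mouse conduction system, had -0.27 and -0.35, with limma adjusted p = 0.998 and 0.639. Of 21 connexins and pannexins listed, 20 were on the array, 9 were bright enough to test, and limma called none between genotypes, with 0 at 1 month and 2 at 2 months at an unadjusted p under 0.05. Differences were below 0 for 7 of the 9 at each age. With each array centred on its median these counts became 6 and 5. Of all genes, 50.1% lay above 0 at 1 month and 39.5% at 2 months in the fit reported here.

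With age, the Gja1 group means were 2.54 ± 0.44 at 2 months and 2.73 ± 0.04 at 1 month in cardioGRMRdKO hearts, and 2.50 ± 0.19 at 2 months and 2.28 ± 0.20 at 1 month in dflox hearts (SD, n = 3 each). From low to high the Gja1 means ran dflox at 1 month, dflox at 2 months, cardioGRMRdKO at 2 months, cardioGRMRdKO at 1 month, and the first and last were apart by more than their SDs while neighbours were not. For Hcn4 the mean was -2.49 ± 0.50 at 2 months and -2.90 ± 0.85 at 1 month in cardioGRMRdKO hearts, and -1.86 ± 0.79 at 2 months and -2.97 ± 0.71 at 1 month in dflox hearts. The age difference in dflox hearts was 1.11 (SE 0.528) and did not pass (limma adjusted p = 0.386). It was 0.70 with slide as a block and 0.24 without slide 3, which held 2 of the 2-month and none of the 1-month dflox hearts. For Hcn2 the means were -1.79 ± 0.28 and -1.57 ± 0.17 in cardioGRMRdKO hearts and -1.25 ± 0.21 and -1.47 ± 0.11 in dflox hearts, at 2 months and 1 month in turn. Only the lowest and highest of these 4 Hcn2 means, both of 2 months, were apart by more than their SDs.

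For Scn4a the means were -1.81 ± 0.28 and -2.03 ± 0.25 in cardioGRMRdKO hearts and -1.40 ± 0.55 and -1.89 ± 0.10 in dflox hearts, at 2 months and 1 month in turn. Its age differences, 0.21 in cardioGRMRdKO hearts and 0.49 in dflox hearts, did not pass (limma adjusted p of at least 0.422). For Gja5, by the brightest probe, the means were 0.45 ± 0.08 and 0.48 ± 0.42 in cardioGRMRdKO hearts and 0.28 ± 0.25 and 0.72 ± 0.17 in dflox hearts. Its age difference in dflox hearts was -0.44 by that probe and 0.64 by A_51_P333216, with limma adjusted p = 0.369 over genes and 0.313 over all probes. Neighbouring group means of Scn4a, Hcn4 and Gja5 lay within their SDs.

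Genes that work with these channels were described as lists. Of 16 sodium channel partners (such as the fibroblast growth factor homologues, ankyrins and Sgk1), all were tested and limma called none at either age, with 1 at 1 month and 2 at 2 months at an unadjusted p under 0.05. Of 20 intercalated disc genes, which hold the junctions between cardiomyocytes, all were tested and limma called none, with 1 at each age at an unadjusted p under 0.05. Their median differences were 0.08 at 1 month and 0.04 at 2 months, beside 0.00 and -0.08 for all genes. Of 33 genes of the conduction system and its regulators, 31 were tested. At 1 month limma called 0 of them, with 10 at an unadjusted p under 0.05, and at 2 months it called 1, Kcne1, with 12 at an unadjusted p under 0.05. Over all 18258 genes the unadjusted counts were 1697 at 1 month and 2763 at 2 months, and limma called 0.948% and 2.23% of them. Over both ages 3 were called higher, Hopx, Pcp4 and Ntm, and 2 lower, Cpne5 and Kcne1, beside 4.37% of all genes called. At an unadjusted p under 0.05 there were 16 of the 31, and 3151 over all genes. The Ntm call was kept in 9 of 26 other settings.

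Kcne1, a small subunit of the slow potassium channel, had levels of -0.66, -0.46 and -0.49 in 2-month cardioGRMRdKO hearts, against 0.51, 0.74 and 0.62 in 2-month dflox hearts. It was 2.23-fold lower (log2 difference -1.15, SE 0.205, limma adjusted p = 0.016), against -0.40 at 1 month (adjusted p = 0.655). The difference between ages did not pass (-0.75, limma adjusted p = 0.951). Kcne1 also fell with age, by 1.91 on the log2 scale in cardioGRMRdKO hearts and by 1.16 in dflox hearts (limma adjusted p = 0.007 and 0.042). Its 2-month genotype call was lost without 2-month dflox replicate 2 (adjusted p = 0.071), dflox replicate 3 (0.061) or cardioGRMRdKO replicate 1 (0.066), with normexp background correction (0.052) and without slide 3 (0.265).

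Hopx, a homeodomain-only regulator of heart muscle that also marks lung alveolar cells, was 5.80, 5.93 and 5.77 in 1-month cardioGRMRdKO hearts, against 5.15, 5.14 and 5.07 in 1-month dflox hearts. Over both ages it was higher by 0.64 on the log2 scale (SE 0.105, limma adjusted p = 0.006). Hopx did not pass at 1 month (0.72, limma adjusted p = 0.057) or at 2 months (0.57, limma adjusted p = 0.093). Cpne5, a calcium-binding copine, differed by -1.19 over both ages (limma adjusted p = 0.017) and Pcp4, a calmodulin-binding peptide of Purkinje cells, by 0.55 (0.029). The Hopx and Cpne5 calls were lost with place on the slide as a term (adjusted p = 0.164 and 0.211) and without slide 3 (0.069 and 0.311). The Cpne5 call was also lost without 1-month dflox replicate 1 (-1.11, adjusted p = 0.050), and the Pcp4 call was lost in 14 of 26 other settings. Tbx3, a repressor that sets the nodal programme, had -0.22 at 1 month and -0.62 at 2 months (limma adjusted p = 0.825 and 0.067), and Tbx5 had -0.37 and -0.21 (0.785 and 0.665).

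**Figure D4:**
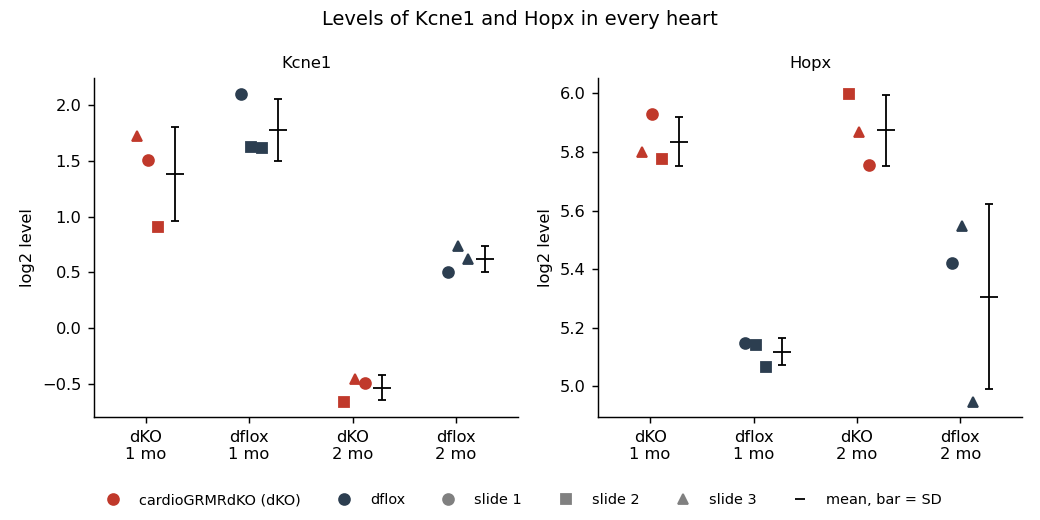
Log2 level of Kcne1 and Hopx (vertical axes, relative to the array's 75th percentile, each on its own scale) in every heart of the 4 groups; marker shapes give the slide and bars give mean and SD of 3 hearts. Kcne1 is lower at 2 months in both genotypes and lies lower in cardioGRMRdKO hearts there, and the Hopx points of cardioGRMRdKO hearts lie above the dflox points at both ages. Hopx did not pass the test at either age alone. The genotypes did not overlap for 18.1% of all genes at 1 month and 17.2% at 2 months.

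The promoters of the 6 member genes were searched in RefSeq sequence of build GRCm38.p6, in windows of 300 bases with 250 before and 50 after the start, for the core motif of the glucocorticoid response element on both strands (AGAACA or TGTTCT). All 6 windows were found in the table. The motif occurred 1 time in the Scn4b window and in none of the other 5, and 19.0% of the 32851 windows of all genes held it. The paired motif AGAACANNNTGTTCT was in 0 of the 6 and in 3 of all windows.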

How the data were processed

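The authors read the Cy3 arrays with Agilent Feature Extraction (9.5 per the submitters' processing notes, while the file headers give 9.5.3.1). As deposited, each scanner file holds a processed signal, a linear intensity from which the authors' software had subtracted background, and places probes on build mm7. The series matrix repeats that intensity in 100% of spots, unscaled.

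Control and outlier spots were left out. The log2 of the intensity was taken, the 75th percentile of an array's transcript spots subtracted, and spots of a probe averaged; these log2 values were computed here from the deposited intensity. Of 41174 probes, 26979 passed the filter, which asked for a signal well above background on every array of 1 or more groups. Probe names were updated through RefSeq tables by accession (22951 and, by another accession, 124 probes) or older symbol (3077), were current (6582), or were kept (8440). The brightest passing probe represented a gene. limma 3.58.1 (R 4.3.3) fitted 4 group means to 12 arrays (residual degrees of freedom 8, prior 2.28). Tests were two-sided and Benjamini-Hochberg adjusted over 18258 genes. On simulated data for the 2-month comparison (17782 genes) the fit recovered 58% of 100 log2 changes of 1 and 76% of 100 changes of 2, with 3 false calls.

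The members and lists were chosen with earlier results of these data known. All member probes were named, with a fixed set of relatives (among them Hcn3, Gjc1, Gja4, Gjd3, Kcne2, Tbx3, Tbx5) and, per list, up to 4 genes called between genotypes with the smallest adjusted p; Ntm, the fifth such conduction gene, and a few list members without a call were named after their values were seen. Some related genes are not reported here. For members called in a comparison, genes of like pattern were to be named, and none was called. The other cell-type marker lists (endothelial, smooth muscle, fibroblast, neuron and glia, lung alveolus) gave 0 or 1 calls each at either age and over both. Replicate numbers did not pair the hearts: deviations of same-numbered hearts correlated between -0.30 and 0.55, and below 0.1 in most pairs. The value of 0.55 was between the 2-month hearts numbered 2, which shared slide 3. With 3 hearts a group, that number sets the precision. Alternatives covered normalization, background, filters, slide, place, covariates and each heart left out. Figures were drawn with matplotlib 3.10.9 (Python 3.11.15).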

Additional observations from a re-analysis of the deposited data

How the results depend on the processing

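The members called stayed at 0 in limma in all 6 comparisons under every setting run, with at most 3 members at an unadjusted p under 0.05 in any of them. Counts of all genes called moved more. At 1 month (173) they were 111 with median centring, 114 with normexp background correction, 83 with no filter on dim probes, 115 with slide as a fixed block, 6 with place on the slide and 31 with the airway score, and 81 to 226 without 1 heart. At 2 months (407) they were 254 with median centring, 239 with normexp, 228 with no filter, 84 with own groups only and 111 without slide 3, and 237 to 356 without 1 heart. Over both ages (798) they were 509, 490 and 513 under median centring, normexp and no filter, 261 with place and 236 without slide 3, and 517 to 795 without 1 heart. Between ages in cardioGRMRdKO hearts (64) they were 27 with median centring, 34 with normexp, 13 with no filter, 17 with place and 13 with the airway score, and 4 to 56 without 1 heart. Between ages in dflox hearts (116) they were 61 with normexp, 17 with no filter, 177 with probes well above background on all arrays, 10 with slide as a block, 29 with place, 217 with trend and robust variances, 19 with the airway score and 32 without slide 3, and 3 to 146 without 1 heart. With own groups only, limma called 0 genes between ages in each genotype, with 1939 (cardioGRMRdKO) and 2436 (dflox) at an unadjusted p under 0.05. The difference between the genotype effects gave 1 call with place and 136 without slide 3, where 2-month dflox was 1 array assumed to vary like the other groups. Own groups only and slide 3 left out use fewer arrays; the cause of the other moves was not tested.

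The replicate block left the genotype counts at 128, 325 and 672 and gave 31 (cardioGRMRdKO) and 73 (dflox) between ages; Pcp4 over both ages had adjusted p = 0.062 under the block, and these numbers do not pair the hearts. The median of all genes at 2 months was -0.08, against 0.03 with median centring and -0.12 with normexp. The share of calls that were higher at 2 months was 50.4%, against 64.2% with median centring and 38.9% with normexp; in dflox hearts between ages it was 49.1%, against 26.9% with median centring and 38.4% with quantile normalization. Over both ages it was 52.5%, against 41.4% with normexp.

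Member differences that changed sign did so without a call in any setting. At 1 month Hcn2 was 0.23 and Scn4a 0.22 with place; Hcn4 was -0.19 with the mean of its probes, -0.13 with slide as a block, -0.36 without slide 3 and -0.36 to 0.49 without 1 heart. At 2 months Gja5 was -0.38 with the mean of its probes and -0.0054 without slide 3; Gja1 was -0.039 and Scn4a 0.054 without slide 3, and Gja1 -0.21 to 0.17 without 1 heart. Over both ages Gja5 was 0.031 with median centring, 0.013 with normexp and -0.15 to 0.051 without 1 heart. Between ages in cardioGRMRdKO hearts Gja1 was 0.047 with the airway score, Gja5 0.033 with place and -0.20 to 0.20 without 1 heart, and Hcn4 -0.028 with the mean of its probes and -0.011 to 0.84 without 1 heart. In dflox hearts Gja1 was -0.013 with the airway score and -0.092 with slide as a block, Gja5 0.13 with the mean of its probes, and Hcn2 -0.016 and Scn4a -0.14 without slide 3. For the difference between the genotype effects Gja1 was 0.060 with the airway score, Gja5 -0.25 with the mean of its probes, Scn4a 0.073 with slide as a block and 0.33 without slide 3, and Hcn4 0.32 without slide 3. Settings without slide 3 left 1 dflox heart at 2 months. Inner or outer place did not vary within either 1-month group, so the place term came from the 2-month hearts. The cause of the sign changes was not tested.

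Calls of related genes also moved: Kcne1 kept its 2-month call in 22 of 27 settings and its call over both ages in 24 of 26. Genes not called in the fit reported here passed in a few settings, among them Tbx3 in 6 over both ages and Mrvi1 in 6 over both ages. Signal over background limits the dimmer Hcn4 probe, which was not well above background in 2 of 12 hearts.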
